A study of Homo sapiens with 6 samples.

Results

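Ribosomal protein genes and the host genes of small nucleolar RNAs (snoRNAs) were examined in human lung fibroblasts depleted of MALAT1, a nuclear long noncoding RNA. The members were the genes whose symbol on the array platform began with RPL or RPS and a digit, without RPS6K and RPS27L, or with SNHG, together with GAS5, in each case only where at least 1 exon probeset named that gene alone. This took in 59 of 16573 genes: 47 ribosomal protein genes (29 of the large and 18 of the small subunit), 8 paralogues or other genes caught by their symbol, 1 pseudogene and 3 snoRNA hosts (SNHG7, SNHG11 and SNHG12). GAS5 and most SNHG genes had no probeset of their own here and were not analysed, since only 3 of 30 such symbols in a current gene table did, against 47 of 73 ribosomal protein symbols.

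WI38 cells, a human diploid lung fibroblast line, had been transfected with the MALAT1 antisense oligonucleotide AS1, with a second one, AS2, or with a control oligonucleotide (Ctr), all phosphorothioate-modified DNA at 100 nM, given in 2 rounds 24 h apart with the lipid Lipofectamine RNAimax. For each sample 100 ng of total RNA was reverse transcribed and amplified. The labelled cDNA was hybridised to an Affymetrix Human Exon 1.0 ST array, with 2 arrays per group and 6 in all. Nothing in the sources used here says whether the arrays of a group came from separate cultures, and a p-value therefore covers no more than the scatter among these 6 arrays. Values are log2 probeset levels, gene values average the probesets that name the gene alone, and changes are log2 differences.

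Ribosomal proteins build the small and the large ribosomal subunit around the ribosomal RNA and are made in matched amounts. Most of their mRNAs start with a C and a run of pyrimidines, the terminal oligopyrimidine (TOP) tract, through which mTOR signalling sets their translation. snoRNAs, which guide chemical modification of ribosomal RNA, are cut from introns, and SNHG genes are hosts whose spliced exons carry no long conserved reading frame. Several ribosomal proteins, RPL5, RPL11 and RPL23 among them, bind MDM2, the ubiquitin ligase of p53, when they are outside the ribosome.

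The antisense sequences are shown because they define the groups, 5′ to 3′ in lower case, as the study's primer list gives them; AS1 holds 10 G or C bases of 20 and AS2 holds 6 of 20.
AS1: gggagttacttgccaacttg
AS2: atggaggtatgacatataat

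The start of the transcript is shown for the genes on which the results below turn, from 10 bases before to 20 bases after the start that RefSeq annotates (GRCh38.p14, transcript strand). Capitals mark a C at the start followed by at least 4 further C or T bases, searched on the transcript strand only and with no other motif searched.
SNHG12, chr1:28581854-28581883, minus strand: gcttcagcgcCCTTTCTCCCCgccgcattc
RPL28, chr19:55385922-55385951, plus strand: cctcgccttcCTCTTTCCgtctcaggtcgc
RPL24, chr3:101686699-101686728, minus strand: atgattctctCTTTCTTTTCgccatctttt
RPL27A, chr11:8682782-8682811, plus strand: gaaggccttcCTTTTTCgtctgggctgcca
RPL27, chr17:42998409-42998438, plus strand: gtgaaaggttagcggaagtgtccttctttc
RPS15, chr19:1438386-1438415, plus strand: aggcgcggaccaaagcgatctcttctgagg

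Of the 47 ribosomal protein genes, 41 were matched to a RefSeq promoter entry, and 29 of these (70.7%) had such a run at the annotated start, beside 1404 of 27305 genes in the whole table (5.14%). A run anywhere in the 30 bases was found for 37 of the 41 (90.2%), beside 43.4% of all genes. SNHG12 was the 1 of the 3 snoRNA hosts with a run at the annotated start. RPL27 and RPS15 had none at the start as annotated, and no match says only that these letters are not at that position.

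Across all probesets, arrays of the same group correlated at 0.984 to 0.987 and oligonucleotide arrays with Ctr arrays at 0.959 to 0.968. MALAT1 averaged 8.53 with AS1 and 8.16 with AS2, against 11.99 with Ctr, a mean change of −3.64 (limma, adjusted p = 1.0e-04). Of 11 fibroblast markers 10 lay in the brightest 25% of genes, and of 3 smooth muscle markers 1 did. None of the 6 epithelial, 5 endothelial and 4 measured leukocyte markers did. The mean level of the fibroblast list was 10.39 to 10.41 on AS1 and 10.08 to 10.32 on AS2 arrays, against 10.62 to 10.73 on Ctr arrays, without overlap. That of the 3 smooth muscle markers was 7.14 to 7.25 on AS1 and 7.10 to 7.19 on AS2 arrays, against 7.30 to 7.39 on Ctr arrays, and the part of either list in the results below was not tested. In bulk RNA, fewer cells of a type and less RNA per cell cannot be told apart.

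Against Ctr, the members had small median changes, and few passed the test. In the mean of AS1 and AS2 against Ctr, 6 of the 59 members were called higher and 0 lower, where called means a Benjamini-Hochberg adjusted p under 0.05 in one limma fit over all 16573 genes. Among all genes 13.0% were called higher and 9.61% lower (22.6% in either direction), beside 10.2% of the members in either direction. At an unadjusted p under 0.05 there were 11 members higher and 3 lower, beside 18.4% and 15.1% of all genes, so the count of higher members was at the background share. The number of calls rested on single arrays: 1 member was called without the second AS2 array and 2 without the first Ctr array.

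The 47 ribosomal protein genes had a median change of 0.06, from −0.33 to 0.94, beside a median of −0.04 over all genes. Over the brightest 25% of genes the median was also 0.06, and 30.1% of them were called, beside 8.51% of the 47. Of the 47, 4 rose (RPS15, RPL10, RPL27 and RPL24), 0 fell, and 31 had a positive estimate. Positive estimates were found for 7205 of all 16573 genes and for 2391 of the 4144 genes in the brightest 25%. At an unadjusted p under 0.05, 9 were higher and 2 lower, the count of higher genes again near the background of 18.4%. The median over the 47 genes was 9.92 and 9.89 on the AS1 arrays and 9.90 and 10.03 on the AS2 arrays, against 9.83 and 10.11 on the Ctr arrays. By this median the Ctr arrays enclosed all 4 oligonucleotide arrays. The mean over the same genes was 9.55 on each AS1 array and 9.59 and 9.69 on the AS2 arrays, against 9.45 and 9.54 on the Ctr arrays, so that by the mean all 4 oligonucleotide arrays lay above Ctr. The large subunit (29 genes, median 0.06) and the small subunit (18 genes, median 0.07) lay close together.

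The 95% interval of the change lay within 1 log2 unit (2-fold) on both sides for 46 of 47 ribosomal protein genes (97.9%), beside 91.0% of all genes. Within 0.5 log2 units it lay for 29 of the 47, beside 8654 of all 16573 genes. All 4 oligonucleotide arrays were above both Ctr arrays for 10 and below them for 2 of the 47 genes, and for 12 and 3 of the 59 members, beside 20.8% and 19.5% of all genes. In the brightest 25% of genes the counts were 1394 and 959 of 4144.

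**Figure D1:**
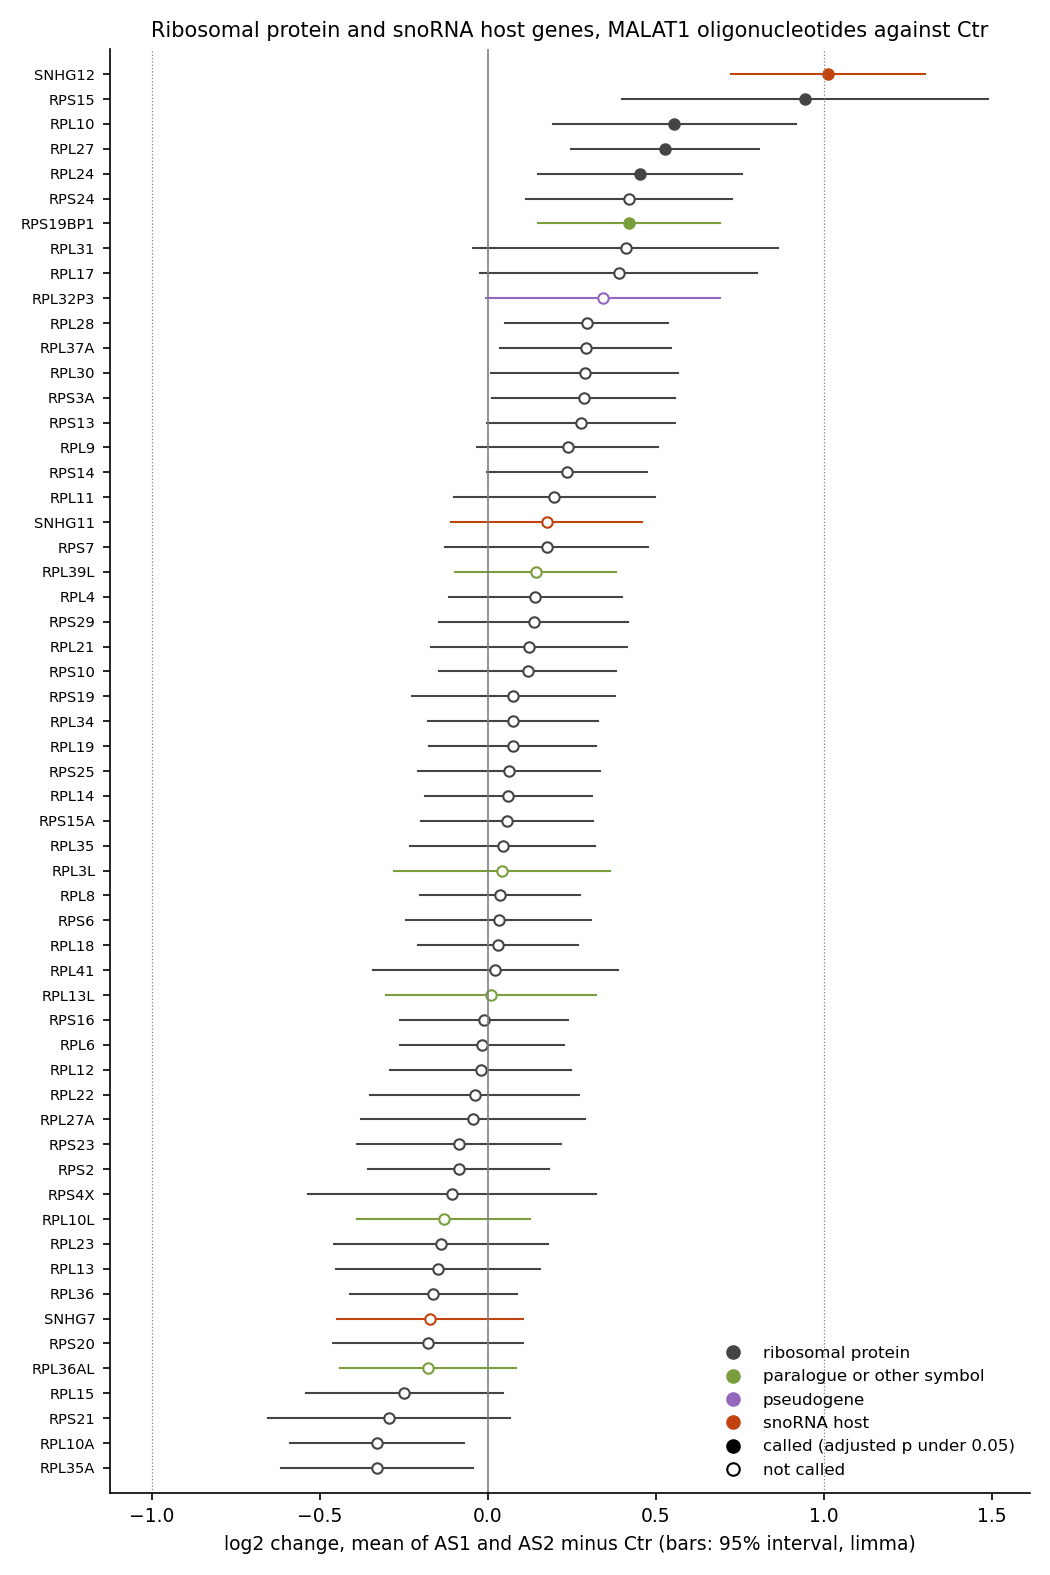
Log2 change of each member in the mean of AS1 and AS2 minus Ctr (points) with its 95% interval from limma (bars), ordered by size, for the 57 members that are not Y-linked. Filled points were called at an adjusted p under 0.05; SNHG12 at 1.01 is the highest, and most intervals of ribosomal protein genes lie between the dotted lines at −1 and 1.

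SNHG12 had the largest change of the members. It carries several snoRNAs in its introns. Its gene value, the mean of 6 probesets, was 9.50 and 9.39 on the AS1 arrays and 9.31 and 9.25 on the AS2 arrays, against 8.18 and 8.52 on the Ctr arrays. Every oligonucleotide array was above both Ctr arrays. The mean change was 1.01 ± 0.13 (SE, adjusted p = 7.4e-04), or 2.02-fold, with 1.09 for AS1 (adjusted p = 0.0017) and 0.93 for AS2 (adjusted p = 0.0029). It was the 1 of 59 members called in the same direction with each oligonucleotide, beside 1233 higher and 916 lower of all 16573 genes. The contrasts share the Ctr arrays. The call was kept with each array left out in turn and was lost in a plain ANOVA without moderation of the variance (adjusted p = 0.0566).

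SNHG11, the host of SNORA39 and SNORA60, did not pass as a gene. It had 6.95 and 7.03 on the AS1 arrays and 7.21 and 7.04 on the AS2 arrays, against 7.03 and 6.74 on the Ctr arrays, with overlap of the groups (mean change 0.17, adjusted p = 0.396). SNHG7 had 5.55 and 5.40 on the AS1 arrays and 5.69 and 5.88 on the AS2 arrays, against 5.70 and 5.90 on the Ctr arrays. The AS1 values were the lowest and the AS2 values lay near those of Ctr (mean change −0.17, adjusted p = 0.389). The median change of the 3 hosts, 0.17, is that of SNHG11, so the 3 hosts give no common level of change.

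Among the ribosomal protein genes, RPL27 and RPL24, both of the large subunit, were bright on the arrays and had several probesets. RPL27 had 10.54 and 10.67 on the AS1 arrays and 10.21 and 10.43 on the AS2 arrays, against 9.83 and 10.04 on the Ctr arrays. All oligonucleotide arrays were above both Ctr arrays, AS1 the furthest (mean change 0.53 ± 0.12, SE, adjusted p = 0.0147). The call was lost without the second AS2 array (adjusted p = 0.0618) and without the first Ctr array (adjusted p = 0.125). RPL24, part of a bridge between the subunits, had 9.40 and 9.37 on the AS1 arrays and 8.89 and 9.23 on the AS2 arrays, against 8.65 and 8.89 on the Ctr arrays. Here the first AS2 array lay level with the second Ctr array (mean change 0.45 ± 0.13, SE, adjusted p = 0.0396). Its call was lost without the first Ctr array (adjusted p = 0.267), the second AS2 array (0.125) or the first AS1 array (0.0549).

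RPS15, of the small subunit head, and RPL10, one of the last proteins to join the large subunit, each rested on 1 probeset. Their mean levels of 6.59 and 6.65 lay below the median probeset of every array (7.34 to 7.36). In the fit over all probesets neither was called in the mean of both oligonucleotides (limma, adjusted p = 0.0916 for RPS15 and 0.131 for RPL10). The calls given next are those of the fit over genes. RPS15 had 7.46 and 6.45 on the AS1 arrays and 6.66 and 7.04 on the AS2 arrays, against 5.94 and 5.98 on the Ctr arrays. The AS1 arrays lay about 1 log2 unit apart, yet both were above Ctr (mean change 0.94 ± 0.24, SE, adjusted p = 0.0213), and the call was lost without the second AS2 array (0.0927) or the first Ctr array (0.0577). RPL10 had 6.86 and 6.49 on the AS1 arrays and 7.08 and 6.93 on the AS2 arrays, against 6.51 and 6.06 on the Ctr arrays. The second AS1 array fell below the first Ctr array (mean change 0.55 ± 0.16, SE, adjusted p = 0.0350). Its call was lost without the first AS1 array (0.0537), the first (0.111) or second AS2 array (0.0838) or the second Ctr array, where the change was 0.33 (0.254).

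RPS19BP1 matched the rule by its symbol alone; it encodes a protein that binds RPS19, not a ribosomal protein. It had 8.34 and 8.63 on the AS1 arrays and 8.17 and 8.21 on the AS2 arrays, against 7.88 and 7.95 on the Ctr arrays, without overlap. Its mean change was 0.42 ± 0.12 (SE, adjusted p = 0.0340), and the call was lost in 5 of the 6 fits that left out an array (adjusted p 0.0745 to 0.168), all but that without the first AS1 array.

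The ribosomal proteins that bind MDM2, and RPS19, the gene most often mutated in Diamond-Blackfan anaemia, were examined whatever their values. RPL11 had 10.91 and 11.01 on the AS1 arrays and 10.74 and 11.03 on the AS2 arrays, against 10.59 and 10.86 on the Ctr arrays (mean change 0.20, adjusted p = 0.357). RPL23 had 8.17 and 7.80 on the AS1 arrays and 8.15 and 8.35 on the AS2 arrays, against 8.16 and 8.36 on the Ctr arrays (mean change −0.14, adjusted p = 0.555). RPS19 had 5.59 and 5.72 on the AS1 arrays and 5.74 and 5.84 on the AS2 arrays, against 5.84 and 5.46 on the Ctr arrays (mean change 0.08, adjusted p = 0.748). The sign of RPL23 and RPS19 depended on the probesets used. RPL23 averages a bright probeset that changed by 0.28 and a dim one that changed by −0.56. RPS19 averages probesets that changed by 0.59, −0.45 and 0.09, at mean levels of 3.33, 5.78 and 7.99, so its largest change is that of its dimmest probeset. In all 3 genes the groups overlapped, and the 95% intervals were −0.10 to 0.50 for RPL11, −0.46 to 0.18 for RPL23 and −0.23 to 0.38 for RPS19. RPL5 had no probeset of its own and was not analysed.

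At the low end, RPL10A and RPL35A, both of the large subunit, were named after their values were seen. RPL10A had 9.92 and 10.06 on the AS1 arrays and 9.81 and 9.82 on the AS2 arrays, against 10.14 and 10.33 on the Ctr arrays. Both Ctr arrays were above all others, but the mean change of −0.33 missed the threshold (adjusted p = 0.0701). RPL35A had 7.95 and 8.18 on the AS1 arrays and 8.05 and 8.25 on the AS2 arrays, against 8.52 and 8.36 on the Ctr arrays, again without overlap (mean change −0.33, adjusted p = 0.0970). When limma let the variance follow the level of the gene (its trend option), both were called lower and 11 members were called higher, 13 of 59 in all beside 27.2% of all genes. RPS24, RPL28, RPL30, RPS3A and RPS13 joined the 6 named above as higher.

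**Figure D2:**
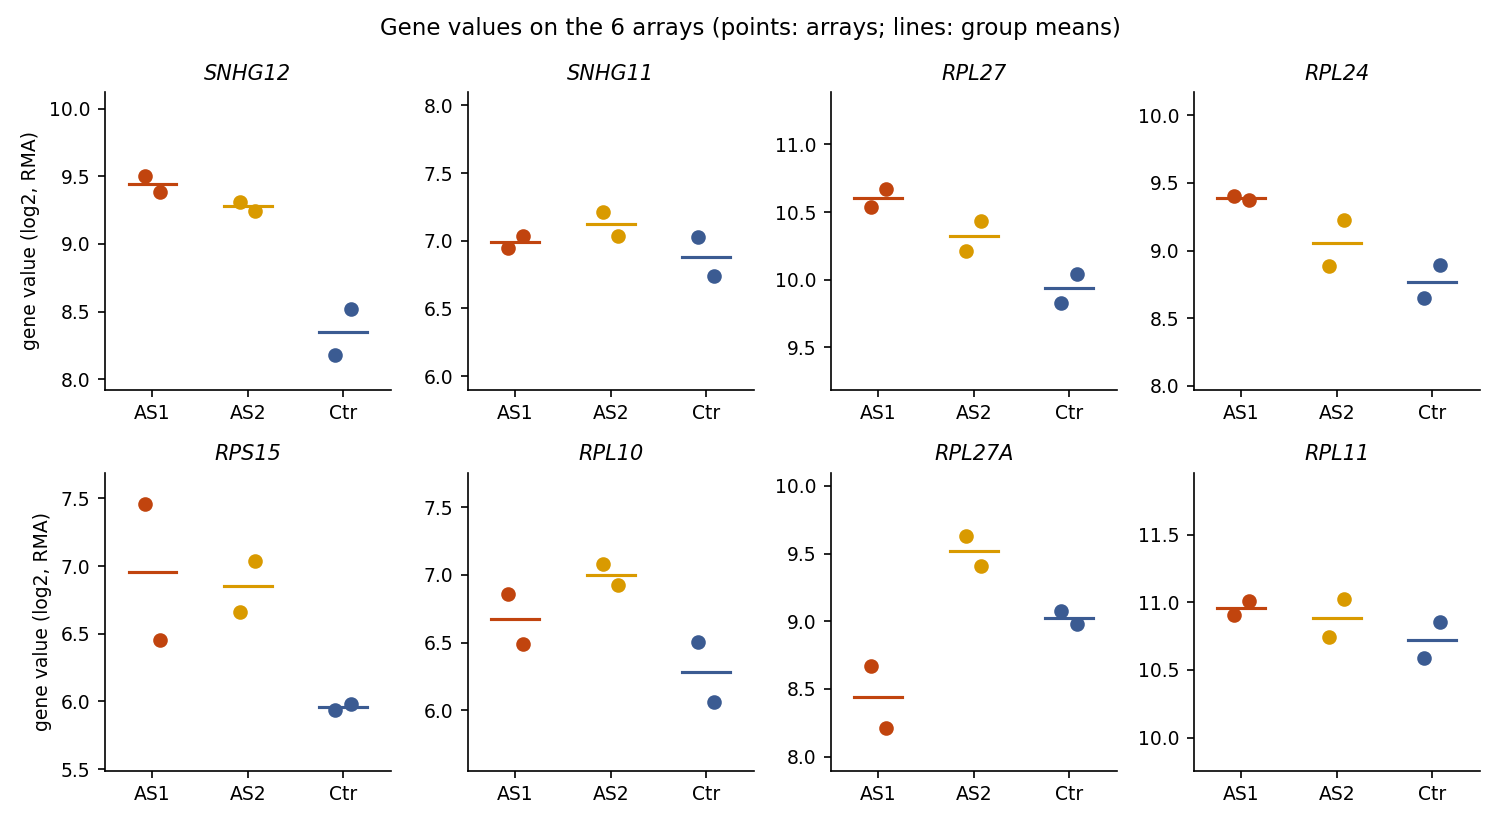
Gene values (log2, RMA) of 8 members on each array, with AS1, AS2 and Ctr from left to right, 2 points per group for its 2 arrays and a line at the group mean; each panel spans 2.2 log2 units. SNHG12 lies above Ctr with both oligonucleotides, RPL27A lies above Ctr with AS2 and below it with AS1, and the groups of RPL11 and SNHG11 overlap.

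Taken singly, AS1 had 5 members higher (SNHG12, RPS15, RPL27, RPL24 and RPS19BP1) and 1 lower (RPL27A), beside 10.4% of all genes called higher and 7.20% lower (17.6% together). AS2 had 3 higher (SNHG12, RPL10 and RPL28) and 1 lower, one of the 2 Y-linked paralogues, whose values are not given, beside 10.4% of all genes higher and 8.16% lower (18.6% together). Of the AS1 calls on named genes, SNHG12 alone was kept in every fit that left out an array. Without the first Ctr array AS1 called 1 member, and without either AS2 array, which alters only the estimate of the spread, 3. Of the AS2 calls SNHG12 was kept in the same way, RPL10 was lost without either AS2 array or the second Ctr array, and RPL28 without either AS2 or either Ctr array (adjusted p 0.110 to 0.187). In number AS2 called 1 member without its second array, 2 without the first Ctr array and 7 without either AS1 array. The 2 comparisons share the Ctr arrays, and a call with one oligonucleotide and not the other is no test of a difference between them. AS2 set directly against AS1 called 1 of the 59 members, beside 0.664% of all genes (0.320% higher and 0.344% lower).

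That member was RPL27A, a large-subunit protein. It had 9.63 and 9.41 with AS2, against 8.67 and 8.21 with AS1, a difference of 1.08 ± 0.17 (SE, adjusted p = 0.0302), with Ctr between them at 9.07 and 8.98. AS2 was above and AS1 below both Ctr arrays. Against Ctr the change was −0.58 with AS1 (adjusted p = 0.0444) and 0.50 with AS2 (adjusted p = 0.0769), and the mean of both was −0.04. The call with AS1 was lost in each fit that left out an array except that without the first AS1 array (adjusted p of up to 0.197, without the second AS1 array). All 4 probesets of RPL27A were higher with AS2 than with AS1, by 1.21, 1.53, 0.52 and 1.07. In the fit over all probesets none of these differences was called (limma, adjusted p of 0.312 to 0.602). The call between the oligonucleotides was lost without the first AS2 array (adjusted p = 0.391), the second AS2 array (0.226) or the second AS1 array (0.0573).

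Single probesets gave a more detailed picture. The 59 members held 246 probesets, of which 15 were called higher and 1 lower in a limma fit over all 232479 probesets, beside 5.61% and 5.15% of all probesets. Between levels 9 and 11, 8 of 50 member probesets were called higher and 1 lower, beside 8.40% of all single-gene probesets of that level called higher and 15.1% called in either direction, the highest share of any level for these too. Of these 8, RPL24, RPL27 and RPL28 held 1 each, and the others lay in SNHG12 and SNHG11. The 8 are therefore not 8 separate genes. At 11 or more 1 of 94 was called. The median size of the change among those 94 was 0.10, beside 0.19 for all single-gene probesets of that level, of which 5.89% were called. These level limits were chosen after the data were seen. Ribosomal protein genes have many near-identical pseudogenes, and what share of a probeset's signal came from them was not tested.

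**Figure D3:**
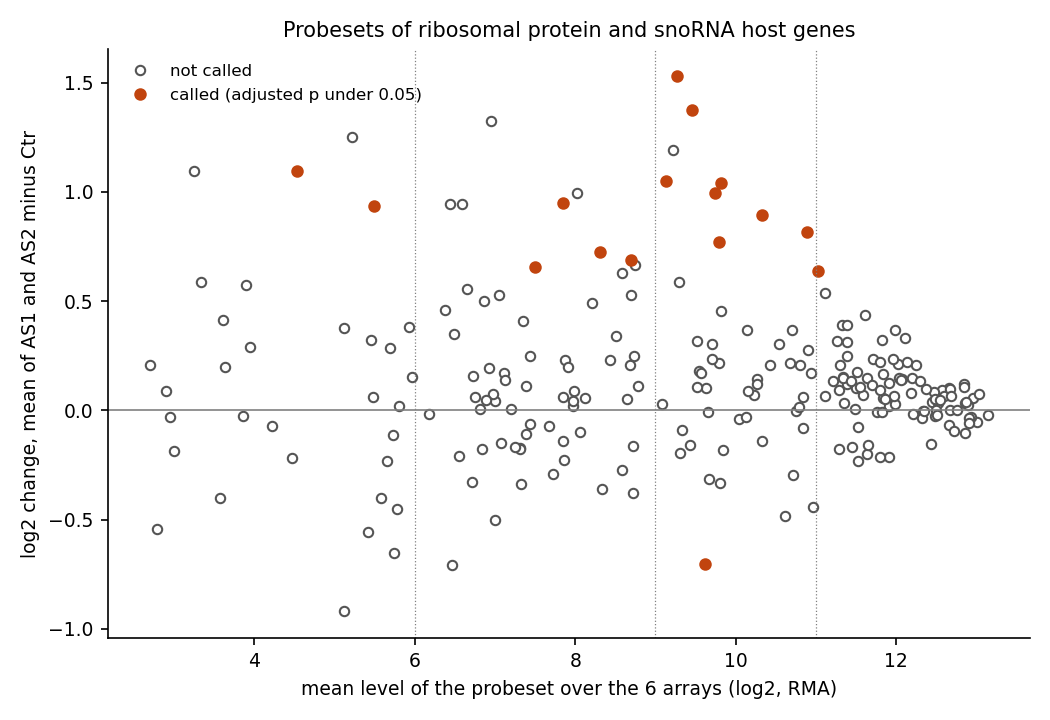
Change in the mean of AS1 and AS2 minus Ctr (log2) of single member probesets against their mean level over the 6 arrays (log2, RMA); filled points were called and dotted lines mark levels of 6, 9 and 11. Between 9 and 11, 8 of 50 were called higher, several of them in SNHG12 and SNHG11, beside 8.40% of all single-gene probesets of that level. At 11 or more most points lie close to 0, and the 1 called, of RPL28, changed by 0.64.

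Whether the probesets of a gene changed by unequal amounts was asked with limma's diffSplice (F test) in genes with at least 3 probesets left above the 25th percentile of level. Of 35 members tested, 8 were called, beside 23.6% of the 13312 genes tested: RPL28, SNHG12, RPS13, RPL27, RPL24, SNHG11, RPS19BP1 and RPL17. In SNHG12, SNHG11, RPL24 and RPL17 the dimmest probeset was left out of the F test by this filter. With AS1 alone 10 of the 35 were called, beside 21.2% of genes, and with AS2 alone 3, beside 14.6%. The platform table used here gives no positions, so it is not known whether a probeset lies in an exon of the mature mRNA or in an intron.

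RPL28, a large-subunit protein that budding yeast lacks, had the smallest p (adjusted p = 3.3e-06). Its first 6 probesets in order of their numbers changed by −0.16 to 0.06 in the mean of both oligonucleotides. The last 4 changed by 0.63, 0.64, 0.89 and 0.95. With AS2 these 4 changed by 1.14, 0.87, 1.13 and 1.28, each called, and with AS1 by 0.13, 0.41, 0.66 and 0.62, none called. The ninth probeset, for example, had 10.41 and 10.38 on the AS1 arrays and 10.75 and 10.98 on the AS2 arrays, against 9.56 and 9.92 on the Ctr arrays. RPL28 was also the 1 member whose probesets changed unequally between AS2 and AS1 (adjusted p = 0.0152), beside 0.623% of genes. The gene value rose with AS2 (0.43, adjusted p = 0.0421) through these 4 probesets, and with the median of the probesets in place of the mean it was −0.10 (adjusted p = 0.752).

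In SNHG12 every estimate was positive but the amounts differed (adjusted p = 0.0016): 1.25, 1.38, 0.82, 1.53, 0.77 and 0.32 in order. The fourth had 9.77 and 9.85 on the AS1 arrays and 9.56 and 9.94 on the AS2 arrays, against 8.10 and 8.40 on the Ctr arrays. Of the 6, 4 were called. In SNHG11 (adjusted p = 0.0220) the fifth and sixth of 7 probesets rose, by 0.66 (adjusted p = 0.0419) and 1.00 (adjusted p = 0.0225), and the other 5 changed by −0.21 to 0.04. The sixth had 9.83 and 10.26 on the AS1 arrays and 10.03 and 10.17 on the AS2 arrays, against 9.20 and 8.95 on the Ctr arrays, with no overlap.

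In RPL27, and less cleanly in RPL24, change differed with level. The 2 brightest probesets of RPL27, at 12.9 and 12.5, changed by 0.02 and 0.09, while the other 3 changed by 1.04, 0.49 and 1.00 (F test, adjusted p = 0.0061). The third probeset of RPL27 had 10.55 and 10.52 on the AS1 arrays and 9.56 and 10.04 on the AS2 arrays, against 9.06 and 9.20 on the Ctr arrays (adjusted p = 0.0193). In RPL24 the 2 brightest changed by 0.06 and −0.00, and the first 4 in order by 1.09, 0.69, 1.05 and 0.46. The change of 1.09 was that of the dimmest probeset, at 3.25, which the F test left out but the gene value includes. The seventh, also dim at 7.31, changed by −0.18 (F test of the gene, adjusted p = 0.0153). RPS13, of the small subunit, had 1 probeset, the dimmest of its 7, at 7.61 and 7.52 on the AS1 arrays and 6.83 and 7.58 on the AS2 arrays, against 5.54 and 6.59 on the Ctr arrays, a change of 1.32 that missed the threshold for a single probeset (adjusted p = 0.0561), and its other 6 changed by −0.00 to 0.25. Of the 8 genes named by the F test, RPL28 alone kept its call with each array left out (adjusted p of up to 0.0016). Without the first Ctr array the other 7 were lost, SNHG12 at an adjusted p of 0.119, RPL27 at 0.218, RPL24 at 0.287, SNHG11 at 0.407 and RPS13 at 0.445. RPL17 was also lost without the filter on dim probesets (0.259). Without the second AS2 array SNHG11 (0.207), RPS19BP1 (0.134), RPS13 (0.0838), RPL27 (0.0672) and RPL17 (0.235) were lost. Without the first AS1 array RPS13, RPL24 and RPL17 were lost, without the second RPL24, RPS19BP1 and RPL17, without the first AS2 array RPS19BP1, and without the second Ctr array RPL24. In all, 2 members were called without the first Ctr array and 3 without the second AS2 array.

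**Figure D4:**
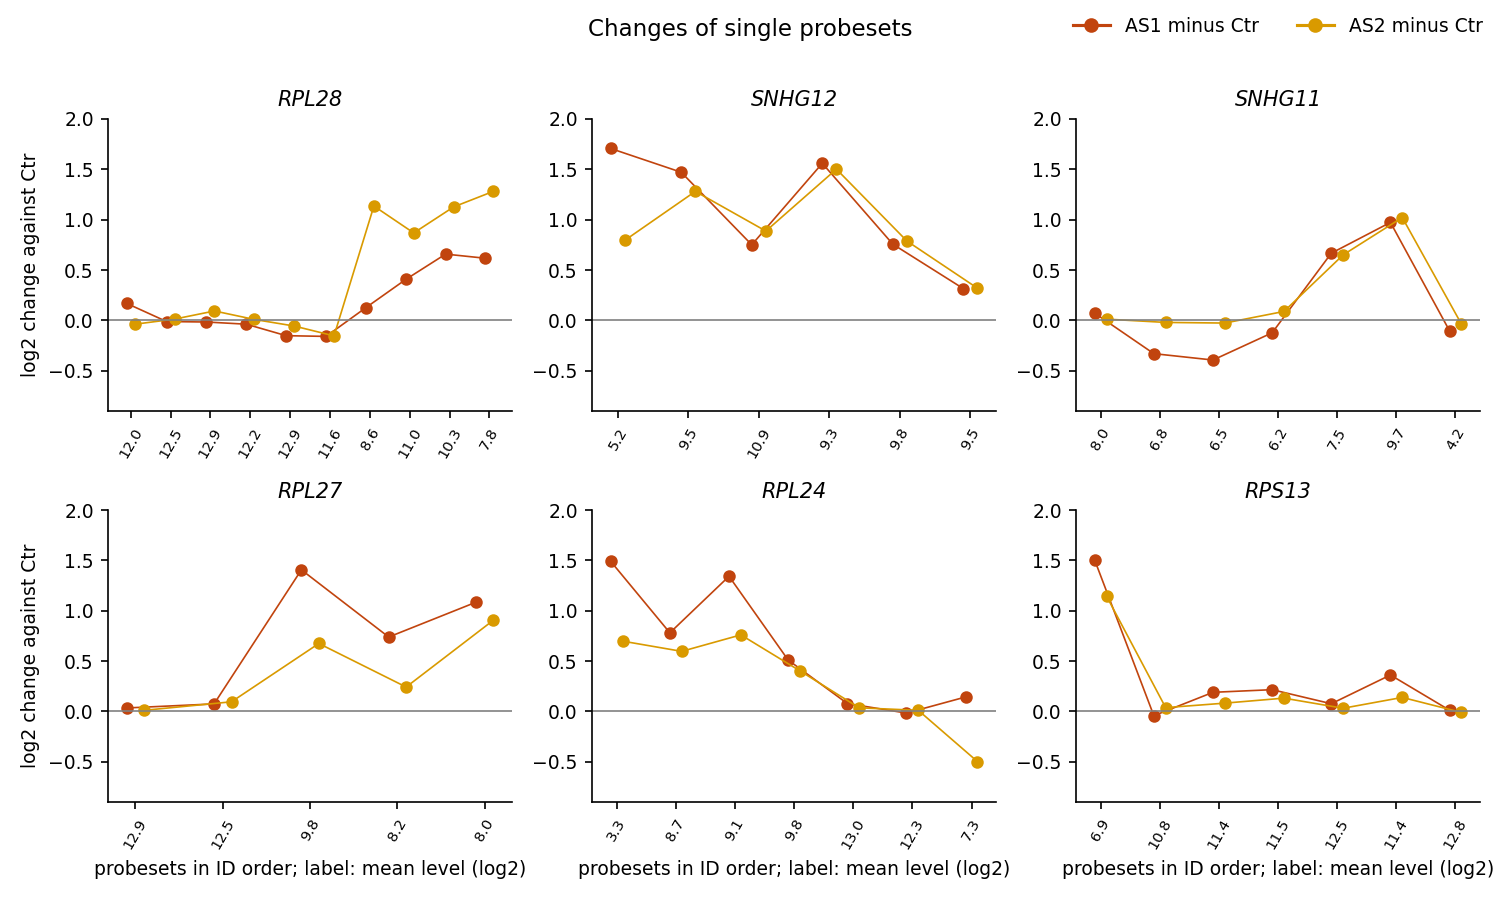
Log2 change of single probesets against Ctr with AS1 and AS2 for 6 members, in the order of the probeset numbers, each tick giving the mean level of the probeset (log2). The last 4 probesets of RPL28 rise while its first 6 stay near 0, and in RPL27 and RPL24 the brightest probesets stay near 0.

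Genes that work beside these members were taken from lists, none holding a member, and counted in the mean of both oligonucleotides beside the 22.6% of all genes called. Of 20 other TOP genes of translation 5 rose and 0 fell, among them EIF4A2, a helicase of initiation (0.71, adjusted p = 0.0056), EIF3E, of the eIF3 complex (0.70, adjusted p = 0.0109; 0.0921 without the first Ctr array), and RPLP0, of the ribosomal stalk (0.57, adjusted p = 0.0067). RPLP0 is itself a ribosomal protein and fell outside the rule only because its symbol has no digit after RPL. Of 66 ribosome biogenesis genes 10 rose and 7 fell. LTV1, an export factor of the small subunit, rose by 0.89 (adjusted p = 0.0056), while HEATR1, of the small subunit processome, changed by −1.03 (adjusted p = 5.2e-04) and NOC2L by −0.70 (adjusted p = 0.0053). Of 19 RNA polymerase I genes 4 rose and 0 fell, led by the initiation factors TAF1D (0.78), TAF1B (0.70) and RRN3 (0.65). The call of TAF1B was lost without the second AS2 array (adjusted p = 0.0579) or the first Ctr array (0.0941).

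Of 28 other snoRNA hosts 4 rose and 1 fell. RCC1, which shares its locus with SNHG3, rose by 0.89 (adjusted p = 6.1e-04) and RNF149 by 0.86 (adjusted p = 9.7e-04); the host that fell was PRKDC. TAF1D is on this list too. Of 13 nonsense-mediated decay genes, a pathway that removes many snoRNA host transcripts, 5 rose and 0 fell, among them C19orf61 (0.72), DHX34 (0.57) and the kinase SMG1 (0.56). DHX34 was not called without the second Ctr array (adjusted p = 0.0596), nor SMG1 without the first (0.0819).

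Upstream regulators were counted in the same way. Of 26 MYC and mTOR regulators 10 rose and 2 fell, with RICTOR, of mTOR complex 2, at 1.34 (adjusted p = 2.1e-04) and the mTOR inhibitors SESN2 at 0.81 (adjusted p = 0.0010) and DDIT4 at 0.75 (adjusted p = 0.0192). DDIT4 was not called without the first (0.051) or second AS2 array (0.0822) or without the first Ctr array, where its change was 0.38 (0.158). Of 10 genes around p53 and MDM2 5 rose and 1 fell. MDM2 stood at 10.97 on each AS1 array and 10.72 and 10.94 on the AS2 arrays, against 9.91 and 10.00 on the Ctr arrays (change 0.95, adjusted p = 6.1e-04). RRM2B (0.97) and PPM1D (0.86) rose beside it. The mitochondrial ribosomal proteins, a separate family of 74 measured genes, had 6 higher and 3 lower, with MRPS18B at 0.94, MRPS21 at 0.62 and MRPL16 at −0.71, and their median of 0.06 was that of the cytoplasmic family.

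**Figure D5:**
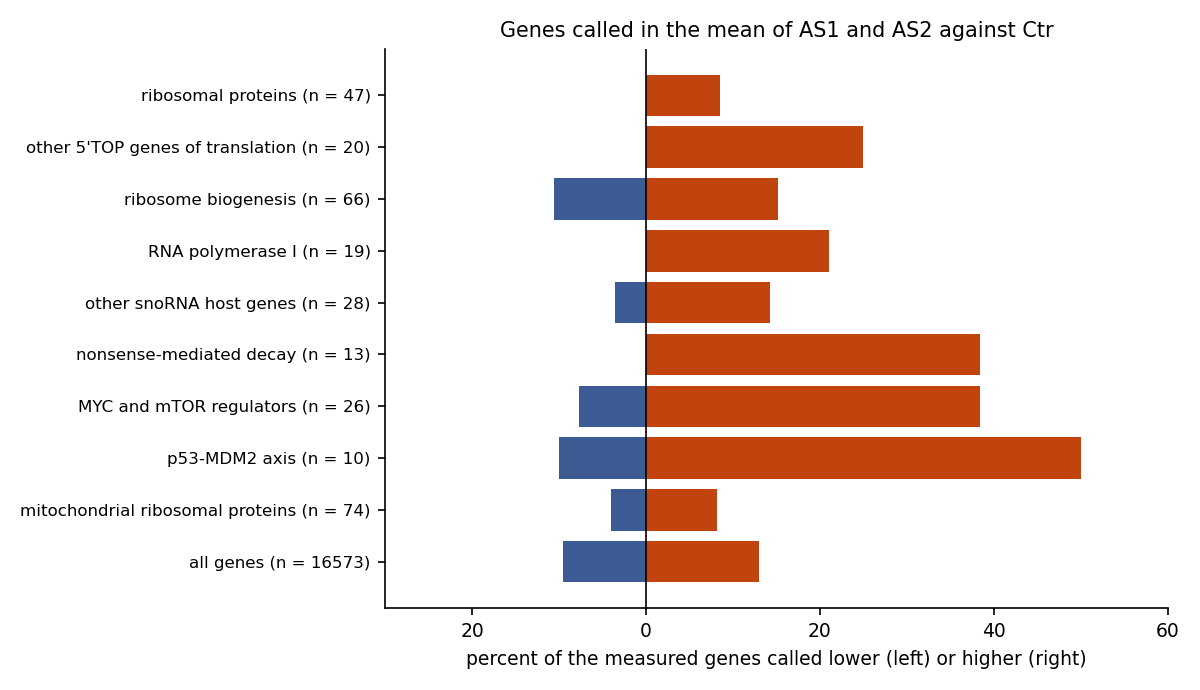
Percent of the measured genes of each list called higher (bars to the right of 0) or lower (bars to the left) in the mean of AS1 and AS2 against Ctr, with the number of genes in brackets. The ribosomal proteins (4 of 47 higher, 0 lower) have a smaller share of calls than all genes, and the genes around p53 and MDM2 (5 of 10 higher) the largest of the lists shown.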

How the data were processed

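The deposited table holds log2 values that the authors made with RMA and Partek for 232479 exon probesets on 6 arrays and were taken over unchanged. Tool versions and the genome build: not given in the sources used here. An array has no depth; the number of arrays limits the precision. Groups and replicate numbers came from the sample titles. Gene symbols came from the GEO platform table, which can be old. Of the probesets, 216780 had 1 symbol, 2335 several and 13364 none, and only those with 1 symbol made gene values (their mean).

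One limma fit (limma 3.58.1, R 4.3.3) over the 3 groups left 3 residual degrees of freedom before moderation. All adjusted p-values in the text are from limma with the Benjamini-Hochberg method over all genes or probesets; intervals are at 95%. The code was tested on simulated data. The members and lists were chosen with earlier results of these data known. Named were the snoRNA hosts, the ribosomal protein genes and paralogues called in the mean or between AS2 and AS1, RPL5, RPL11, RPL23 and RPS19, up to 3 called genes per list, and MALAT1. RPL28, RPL10A, RPL35A, RPS24, RPL30, RPS3A, RPS13, RPL17, RPS19BP1, PRKDC and the probesets shown were named after their values were seen. Antisense sequences are from the study's primer list and transcript starts from RefSeq (GRCh38.p14).

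Other settings tried were a median in place of the mean of probesets, fits to bright probesets or to bright genes, 3 probesets as the minimum, a repeated quantile normalization, arrays centred at their medians, a plain ANOVA, the study's own cut (unadjusted p under 0.001 and more than 2-fold), the trend and the robust option of limma, a block by replicate number, fits to the compared groups alone, and fits with 1 array omitted.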

Additional observations from a re-analysis of the deposited data

Results flagged for a closer look

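RPL27A was flagged because AS2 and AS1 differed in a direct test, by 1.08 (limma, adjusted p = 0.0302). The value was 9.63 and 9.41 on the AS2 arrays, against 8.67 and 8.21 on the AS1 arrays. None of its probesets was called for this difference when fitted singly.

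Probesets that name more than 1 gene were left out of every gene value, and 2 of them were flagged because they were called above the Ctr arrays. Both name SNHG11 and SNORA60, the snoRNA in one of its introns. The first had 8.11 and 8.56 on the AS1 arrays and 8.23 and 8.57 on the AS2 arrays, against 6.45 and 7.20 on the Ctr arrays, a mean change of 1.54 (adjusted p = 0.0179). The second had 7.75 and 8.23 on the AS1 arrays and 7.49 and 7.56 on the AS2 arrays, against 6.41 and 6.57 on the Ctr arrays, a mean change of 1.26 (adjusted p = 0.0116). The other probesets that name SNHG11 with a snoRNA changed by −0.31 to 0.70, and none was called (limma, adjusted p of 0.0536 to 0.825). Among all probesets 10.8% were called in either direction. Host and snoRNA cannot be told apart in the probesets that name both.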

How the results depend on the processing

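With 6 arrays, calls were limited by the spread between pairs of arrays. The number of members called in the mean of both oligonucleotides (6) was 13 with limma's trend option, 10 when only genes at or above the 75th percentile of level were fitted (35 members, 3 of the same calls, beside 47.5% of all such genes), 1 in an ANOVA without moderation, 1 at the methods' threshold, and 1 to 7 with an array left out. For AS1 (6) the counts were 11 with the trend option, 10 in the bright genes, 3 with bright probesets only, 3 in a fit to only the groups compared, 0 in the ANOVA, 1 at the methods' threshold, and 1 to 6 with an array left out. For AS2 (4) they were 10, 7 in the bright genes, 1 with the median of the probesets, 7 in only the groups compared, 0 in the ANOVA, 0 at the methods' threshold, and 1 to 7 with an array left out. Between AS2 and AS1 (1) they were 2 with the trend option, 2 in the bright genes, 0 with the median of the probesets, 0 with bright probesets only, 0 in the ANOVA, and 0 to 1 with an array left out. The mean of both oligonucleotides uses every array, so a fit to only the groups compared gave no other value. In that mean 27.2% of all genes were called with the trend option, beside 22.6% in the main fit. Apart from these and the bright genes in the mean, the share of all genes called in the other settings was not counted. The counts of members in those settings, here and above, are therefore no result about the members.

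The median change of the ribosomal protein genes stayed between 0.02 and 0.10 with an array left out. That of the 3 snoRNA hosts (0.17) was 0.014 with the median of the probesets, 0.59 with at least 3 probesets per gene (2 genes), 1.01 in the bright genes (1 gene), and 0.030 to 0.32 with an array left out. The genes with unequal probeset changes (8) numbered 2 to 8 with an array left out, an alternative added after the data were seen. Directions turned for RPL23 (0.28 with bright probesets only), RPS19 (−0.45 with the median of the probesets, −0.18 with bright probesets only, and −0.11 to 0.27 with an array left out, −0.11 without the second Ctr array) and RPL28 with AS2 (−0.10 with the median of the probesets), and the cause was not tested. Of 787 alternatives for single genes, 636 kept direction and call, 137 lost the call and 9 gained one.

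The sample titles do not say whether the replicate numbers pair arrays across groups, and the main fits used no pairing. Differences between the first and second array of a group correlated across genes at −0.31 (AS1 and AS2), −0.44 (AS1 and Ctr) and 0.34 (AS2 and Ctr). These values are of mixed sign, and they cannot settle whether arrays of different groups share a source of variation under other numbering. With the replicate number as a block the counts of members called were 4 in the mean, 5 for AS1, 3 for AS2 and 1 between AS2 and AS1. The share of all genes called with this block was not counted.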
